A study of Mus musculus with 16 samples.

Results

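The threonine and glycine one-carbon enzymes turn threonine and glycine into folate-bound carbon units. They were followed here as 10 named genes, and a probe was taken as belonging to a gene when its gene name on the array was the gene's symbol. Of the 10 genes, 9 had such a probe, with 13 probes in all among the 41174 probes of the array. The level of Amt was not analysed here because no probe carried that name. All 13 probes were well above background on all 16 arrays and none was saturated.

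Mouse ES cells are known for burning threonine. Threonine dehydrogenase, Tdh, oxidises it in mitochondria, and glycine C-acetyltransferase, Gcat, cleaves the product into glycine and acetyl-CoA. The glycine cleavage system, made of the decarboxylase Gldc, the aminomethyltransferase Amt, the lipoate carrier Gcsh and the dihydrolipoamide dehydrogenase Dld, then breaks glycine down and loads its carbon onto tetrahydrofolate. The serine hydroxymethyltransferases Shmt1, in the cytosol, and Shmt2, in mitochondria, move the same unit between serine and glycine, and Mthfd1, in the cytosol, and Mthfd2, in mitochondria, interconvert the folate-bound forms used for nucleotide synthesis.

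Each of the 16 samples was total RNA on a 1-colour array. The MEF sample was embryonic fibroblasts of C57BL/6 mice, and the ES cells were the C57BL/6 line B6ES and the C57BL/6 x CBA line TT2. The iHAC1-iPS group held 4 clones (1-A3, 1-B, 1-C3 plus 1-D6) with a human artificial chromosome with 2 copies of each of Klf4, c-Myc, Sox2 and Oct4 under the ubiquitous CAG promoter. The iHAC2-iPS group held 4 clones (2-B1, 2-C6, 2-E plus 2-N) with the same cassette plus 2 more copies of Oct4 and a knockdown construct against p53. The iHAC-free iPS group held 4 lines that had lost the vector and were sorted from those clones, F-B1 from 2-B1, F-C5 from 2-C6, F-E4 from 2-E and F-N7 from 2-N. The sample 20D17 was a single C57BL/6 x DBA line made with retroviruses. All iHAC-derived cells were on the C57BL/6 background, were treated with miR-294 and miR-295 mimics during reprogramming and, like the ES cells, were kept on fibroblast feeder layers, whereas MEFs were grown in other medium without LIF. Each iPS sample was 1 clone, so the spread within a group was a spread between clones.

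Levels are log2 values after subtraction of each array's own 75th percentile, so they can be compared between samples for the same probe but not between genes. A gene with several probes was read by the probe with the highest mean, and a difference was called at a limma adjusted p under 0.05, over 31423 probes, together with a size of at least 2-fold. The MEF array shared a slide with 3 iHAC1-iPS clones, and the fourth iHAC1-iPS clone, 1-D6, shared a slide with the ES lines and 20D17. The iHAC2-iPS and iHAC-free arrays lay on 2 further slides of a second scan session, read with a later version of the scanner software, so that session, software version and group cannot be told apart when they are set against ES cells or iHAC1-iPS. Trp53, the gene aimed at by the iHAC2 knockdown, had a mean level of 2.08 in ES cells, 0.91 in iHAC2-iPS, 1.44 in iHAC-free iPS and 1.03 in iHAC1-iPS, which carried no such construct. Against ES cells Trp53 was called lower in iHAC2-iPS (-1.17, limma adjusted p 0.0296) and also in iHAC1-iPS (-1.05, limma adjusted p 0.0269). It was not called between iHAC1-iPS and iHAC2-iPS (0.12, limma adjusted p 0.708) or between iHAC2-iPS and iHAC-free iPS (-0.53, limma adjusted p 0.266). Of the pluripotency markers, 9 of 10 had a probe. In iHAC1-iPS against ES cells 8 of the 9 were called lower, among them Sox2 (-2.48), and Pou5f1 (Oct4) was called higher (2.77). Sox2 and Pou5f1 are both also on the vector, and whether their probes read the vector's copies was not tested. All 12 fibroblast markers were well above background on every array, with a mean level of 3.90 in MEFs, 1.18 and 2.44 in the ES lines, 2.85 to 3.62 in iHAC1-iPS, 1.59 to 3.38 in iHAC2-iPS (2-B1 highest), 2.44 to 3.17 in iHAC-free iPS and 3.25 in 20D17. Against ES cells, 4 of the 12 were called higher and 0 lower in iHAC1-iPS, beside 6.83% and 7.85% of all genes. In iHAC2-iPS and in iHAC-free iPS 0 of the 12 were called against ES cells. As in any bulk sample, fewer cells of a type and less RNA per cell could not be told apart, and the part of feeder or residual fibroblasts in the results below was not tested.

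Tdh, which opens the pathway, was the enzyme with the widest range of levels. Its single probe lies at chr14:64111327-64111386 on the minus strand (mm9), and the first 30 of its 60 bases are shown in lower case to identify the transcript measured.
Tdh probe: cacaaaggccagagaaatgaagtcctgagt
The Tdh level was 7.20 in B6ES and 7.14 in TT2. It was -1.71 in 1-A3, 3.14 in 1-B, 4.59 in 1-C3 and 1.83 in 1-D6. It was 6.32 in 2-B1, 6.53 in 2-C6, 5.65 in 2-E and 7.20 in 2-N. All 4 iHAC1-iPS clones lay below every ES, iHAC2-iPS and iHAC-free sample, whereas iHAC2-iPS reached up to the ES level. The iHAC-free lines were at 7.17 in F-B1, 6.73 in F-C5, 6.98 in F-E4 and 6.66 in F-N7. The MEF array read -5.38 and 20D17 read 6.33.

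**Figure D1:**
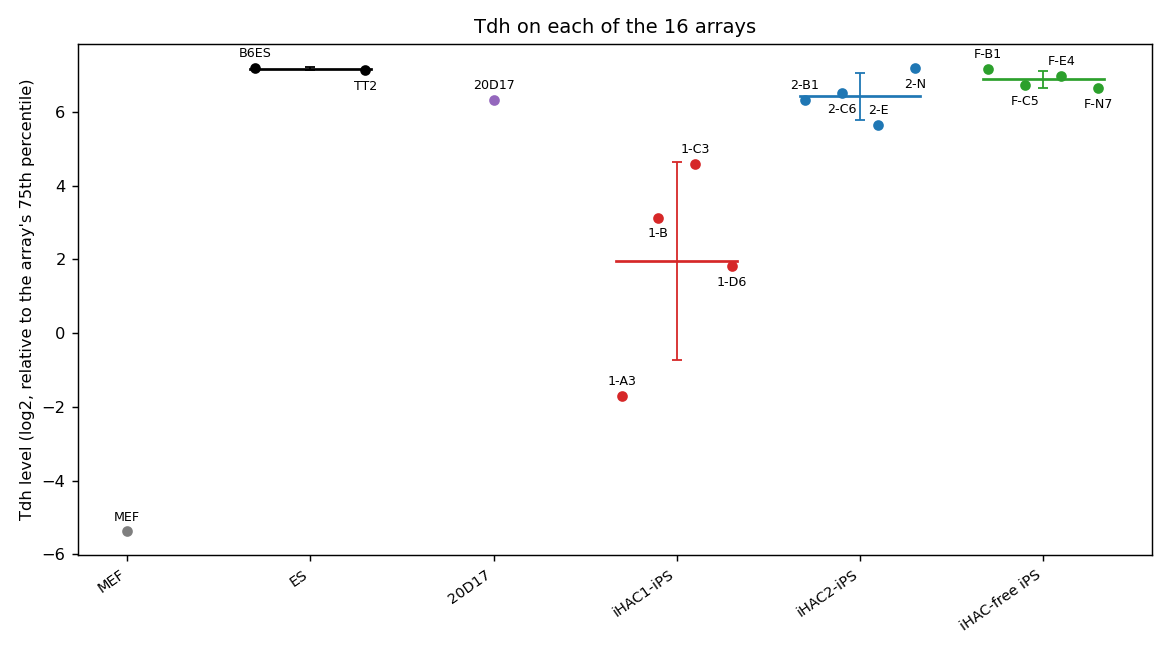
Tdh level on each array (y axis, log2 relative to the array's 75th percentile) by group (x axis), 1 point per array with its name, the bar being the group mean and the whisker 1 SD. The 4 iHAC1-iPS clones spread from -1.71 to 4.59 between the MEF array and all other samples, which lie at 5.65 or above.

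Tdh fell by 5.21 on the log2 scale in iHAC1-iPS against ES cells (SE 1.20), a 37.1-fold lower level, with a limma adjusted p of 0.0103. It was also lower than in iHAC2-iPS, by 22.1-fold (log2 difference -4.46, SE 0.98, limma adjusted p 0.00473). Within iHAC1-iPS the SD was 2.70 on the log2 scale and the highest clone stood 78.9-fold above the lowest, while the other enzymes, by the probe used for each, ranged over 1.09-fold to 1.68-fold among the same clones. On the slide that held both ES lines, 1-D6 differed from their mean by -5.34. Without 1-A3 the difference from ES cells was -3.99, and without 1-C3 it was -6.09, both still called. The mean level of the 9 pluripotency markers moved with Tdh between groups, at 3.75 and 4.03 in the ES lines, -2.73 to -0.35 in iHAC1-iPS, 1.91 to 4.11 in iHAC2-iPS and 3.62 to 3.75 in iHAC-free iPS, and its part in the Tdh difference was not tested. The call against ES cells was lost when only the compared groups were fitted (limma adjusted p 0.082), with slide as a block (0.102), without B6ES (0.0825) and without TT2 (0.0585), all with the same direction.

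From highest to lowest, the mean Tdh level with its SD was 7.17 ± 0.04 in ES cells (n = 2), 6.89 ± 0.23 in the iHAC-free lines (n = 4), 6.43 ± 0.64 in iHAC2-iPS (n = 4), 6.33 in 20D17, 1.96 ± 2.70 in iHAC1-iPS (n = 4) and -5.38 in MEFs. The first neighbours in that order were not told apart. The iHAC-free lines differed from ES cells by -0.29 (95% confidence interval -2.90 to 2.33, limma adjusted p 0.913), and iHAC2-iPS from iHAC-free iPS by -0.46 (-2.60 to 1.67, limma adjusted p 0.838). The fit used 1 estimate of the spread per probe for all groups, the iHAC1-iPS clones included.

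The genes whose pattern was most like Tdh over the 16 arrays, by Pearson's r with 1 probe per gene, were 2410007B07Rik (r = 0.981), Dppa4 (0.977), B3gnt7 (0.967), the epithelial adhesion gene Epcam (0.966) and the pluripotency factor Utf1 (0.964). Without the MEF array the values were 0.982, 0.982, 0.942, 0.946 and 0.960 over 15 arrays. The points share arrays and scaling, so these are descriptions only, and the probes of 2410007B07Rik and Dppa4 were well above background on 14 of the 16 arrays, that of B3gnt7 on 13 and the others on 16. Among the enzymes, the r with Tdh over all 16 arrays was highest for Gldc, at 0.876, and was negative for Dld, at -0.350. It was not computed without the MEF array, where Tdh and Gldc were both lowest. Within iHAC1-iPS, 1-C3 had the highest Tdh (4.59) and the lowest Gldc (2.27).

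Gcat acts directly after Tdh, and it was called in none of the 5 comparisons. The promoters of Gcat, Gldc and Shmt2, enzymes of the mitochondrial route from threonine to serine, are shown so that their letters can be set beside the levels that follow, with the 300 bases of RefSeq (GRCm38.p6) from 250 before to 50 after the start. Capitals mark matches, on either strand, to the E-box CACGTG, a Myc-binding element, and to GGGCGG, the GC box bound by Sp factors.
Gcat promoter, chr15:79030624-79030923, + strand: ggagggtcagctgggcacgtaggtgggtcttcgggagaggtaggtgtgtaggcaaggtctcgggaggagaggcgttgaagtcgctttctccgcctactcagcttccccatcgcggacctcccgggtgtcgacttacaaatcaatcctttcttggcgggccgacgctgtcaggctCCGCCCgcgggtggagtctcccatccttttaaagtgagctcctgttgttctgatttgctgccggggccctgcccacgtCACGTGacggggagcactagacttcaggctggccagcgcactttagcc
Gldc promoter, chr19:30175392-30175691, - strand: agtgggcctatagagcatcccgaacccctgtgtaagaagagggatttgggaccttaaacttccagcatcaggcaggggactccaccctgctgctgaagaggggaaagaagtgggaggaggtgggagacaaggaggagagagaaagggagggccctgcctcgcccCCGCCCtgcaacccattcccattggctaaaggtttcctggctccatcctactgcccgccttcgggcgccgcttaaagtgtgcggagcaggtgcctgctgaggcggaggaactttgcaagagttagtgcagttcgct
Shmt2 promoter, chr10:127522395-127522694, - strand: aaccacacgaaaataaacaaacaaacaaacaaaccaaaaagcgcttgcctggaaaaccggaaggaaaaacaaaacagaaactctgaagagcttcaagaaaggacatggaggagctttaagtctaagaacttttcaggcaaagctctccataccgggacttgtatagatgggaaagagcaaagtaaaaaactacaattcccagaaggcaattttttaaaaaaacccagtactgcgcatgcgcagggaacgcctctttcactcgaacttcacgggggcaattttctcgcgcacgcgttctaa
Over the enzymes, 9 promoters were searched, that of Amt included and that of Tdh not. The E-box was found in 1 of the 9, that of Gcat, and in 7.15% of 32851 promoters of the same length. The GC box was found in 6 of the 9, Amt among them, against 35.7% of all promoters. The octamer ATGCAAAT (1.74% of all promoters), the core promoter element TATAAA (13.6%) and the amino acid response element core TGATGNAA (3.97%) were in none of the 9. The Gcat window held 1 E-box and 1 GC box, the Gldc window 1 GC box and the Shmt2 window no match. A match or its absence describes the letters of these windows alone. Tdh was not among the promoters used here.

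The Gcat probe lies at chr15:78867788-78867847 (mm9, plus strand). Its level was 4.12 in B6ES and 4.44 in TT2. It was 4.84 in 1-A3, 4.36 in 1-B, 4.84 in 1-C3 and 4.84 in 1-D6, so that only 1-B lay within the range of the ES lines. It was 4.92 in 2-B1, 4.72 in 2-C6, 5.04 in 2-E and 4.70 in 2-N, all above both ES lines, and 4.39 in F-B1, 4.28 in F-C5, 4.32 in F-E4 and 4.36 in F-N7, all between them. Relative to ES cells, Gcat differed by 0.44 in iHAC1-iPS (SE 0.18, limma adjusted p 0.0984), 0.57 in iHAC2-iPS (SE 0.18, limma adjusted p 0.0571) and 0.06 in iHAC-free iPS (SE 0.18, limma adjusted p 0.874), none of them called. MEFs were at 2.73 and 20D17 at 4.02.

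In the glycine cleavage system, the decarboxylase Gldc was lower in iHAC1-iPS and the carrier Gcsh was lower in iHAC2-iPS. The Gldc probe (chr19:30173154-30173213, minus strand, mm9) read 3.30 in B6ES and 3.57 in TT2. It read 2.48 in 1-A3, 2.43 in 1-B, 2.27 in 1-C3 and 2.49 in 1-D6, a spread (SD 0.10) far narrower than that of Tdh and below all ES, iHAC2-iPS and iHAC-free samples. Gldc fell by 1.02 on the log2 scale in iHAC1-iPS against ES cells (SE 0.27), 2.02-fold, with a limma adjusted p of 0.0184. The size stood at the edge of the 2-fold limit and went under it with normexp background correction (-0.97), quantile normalization (-0.94), the deposited values (-0.99) and without 1-C3 (-0.97). The adjusted p was 0.0771 without B6ES, 0.127 without TT2 and 0.174 with slide as a block.

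Gldc was 3.24 in 2-B1, 2.96 in 2-C6, 3.28 in 2-E and 3.91 in 2-N, and the iHAC-free lines ran from 3.10 to 3.86. iHAC2-iPS differed from ES cells by -0.09 (95% confidence interval -0.66 to 0.49), and iHAC-free iPS by 0.10 (-0.48 to 0.68). Against iHAC2-iPS, iHAC1-iPS was lower by 0.93 on the log2 scale (SE 0.22, limma adjusted p 0.00635), which is under 2-fold and so not called. MEFs read -0.66 and 20D17 read 2.78.

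Gcsh, the lipoate-bearing shuttle between the other subunits, had 1 probe (chr8:119513030-119513089, minus strand, mm9) that starts at base 176 of its transcript.
Gcsh probe: gagaaacatgagtggataacgacagaggaa
Its level was 1.85 in B6ES and 1.56 in TT2. It was -0.26 in 2-B1, 0.81 in 2-C6, 0.47 in 2-E and 0.64 in 2-N, all below every ES and iHAC-free sample. Gcsh fell by 1.29 on the log2 scale in iHAC2-iPS against ES cells (SE 0.26), 2.44-fold, with a limma adjusted p of 0.0149. Without 2-B1 the difference was -1.06 (limma adjusted p 0.0144). The call was lost when only the compared groups were fitted (limma adjusted p 0.152), without B6ES (0.114) and without TT2 (0.0700). The iHAC1-iPS clones ran from 0.82 to 1.11 and the iHAC-free lines from 1.04 to 1.55, with differences from ES cells of -0.73 (limma adjusted p 0.0691) and -0.44 (limma adjusted p 0.365), neither called. The MEF array was at 0.48 and 20D17 at 1.18.

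Dld serves the glycine cleavage system and also the pyruvate, 2-oxoglutarate and branched-chain dehydrogenase complexes, and its 3 probes did not move together. The first 30 bases of each are shown because they read different stretches of the transcript.
Dld probe starting at base 165: gcctacaaggagtttcttcagttcctttaa
Dld probe starting at base 1721: aattatgaaacttctgggagatctttagta
Dld probe starting at base 1865: gactgtttcatactgtctacgagattcaac
They lie at chr12:32029759-32034512, chr12:32016889-32016948 and chr12:32016753-32016814 (mm9), and the first spans an intron. By the probe at base 1865, the one used for the gene, Dld was 2.93 in B6ES and 2.85 in TT2, 3.07 to 3.28 in iHAC1-iPS, 2.56 to 3.06 in iHAC2-iPS and 2.54 to 2.68 in iHAC-free iPS. None of its differences reached 2-fold, and that between iHAC1-iPS and iHAC2-iPS was 0.42 (SE 0.13, limma adjusted p 0.0264). The probe at base 1721 gave 0.44 for the same difference (limma adjusted p 0.0208).

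The Dld probe at base 165 read -1.56 in B6ES and -1.81 in TT2. It read -3.91 in 2-B1, -2.43 in 2-C6, -2.50 in 2-E and -2.67 in 2-N, all below every other sample. It was called lower in iHAC2-iPS than in ES cells (log2 difference -1.19, SE 0.33, limma adjusted p 0.0389) and higher in iHAC1-iPS than in iHAC2-iPS (1.10, SE 0.27, limma adjusted p 0.00814). Without 2-B1 these differences were -0.85 (limma adjusted p 0.0135) and 0.75 (limma adjusted p 0.00189), under 2-fold and so no longer called. With normexp background correction they were -0.68 and 0.60. The call against ES cells was also lost when only the compared groups were fitted (limma adjusted p 0.208), without B6ES (0.214) and without TT2 (0.137).

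**Figure D2:**
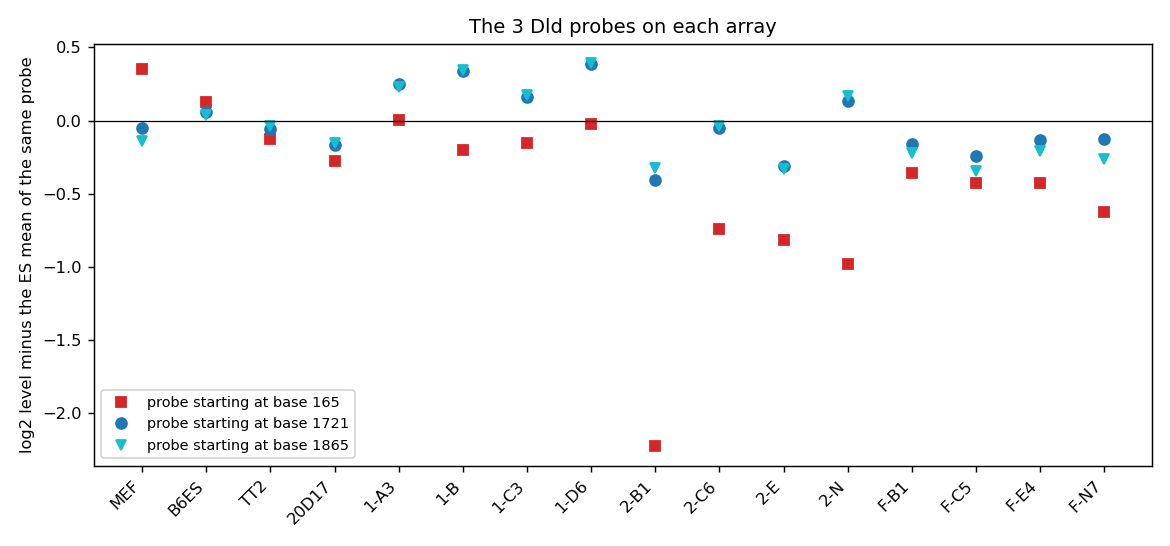
Level of each of the 3 Dld probes on every array (y axis, log2 level minus the ES mean of the same probe, x axis, array), with 1 symbol per probe and the line at 0 marking the ES mean. In the 4 iHAC2-iPS clones the probe at base 165 stands below the probes at bases 1721 and 1865, most in 2-B1, where its level before subtraction of the ES mean was -3.91.

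As a gauge of the reading along transcripts, 1933 transcripts with probes at least 1000 bases apart were used. The median difference of upstream minus downstream probe, centred per transcript, was -0.12 in 2-B1 and 0.04 to 0.12 in the other iHAC2-iPS clones. It was -0.25 to -0.13 in iHAC1-iPS, 0.03 to 0.16 in iHAC-free iPS, 0.02 and 0.03 in the ES lines and -0.20 in MEFs. So 2-B1, lowest for Gcsh and for the Dld probe at base 165, also had the lowest value of its group, while the other iHAC2-iPS clones did not stand below the ES lines. All 4 iHAC1-iPS clones, in which Tdh and Gldc were called lower, had lower values still. In Shmt1 the upstream probe minus the downstream one read -1.72 in 2-B1 and -1.35 to -1.24 in the other iHAC2-iPS clones. In Mthfd1 it read -2.55 in 2-B1 and -1.86 to -1.68 in the others, so a low upstream reading in 2-B1 was not particular to Dld. The part of such differences along transcripts in the Tdh, Gldc, Gcsh and Dld results was not tested.

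The mitochondrial hydroxymethyltransferase Shmt2 was higher in all 4 iHAC2-iPS clones. Its probe lies at chr10:126954811-126954870 (mm9). The level was 3.19 in B6ES and 3.17 in TT2. It was 3.70 in 1-A3, 3.58 in 1-B, 3.63 in 1-C3 and 3.65 in 1-D6, and 3.94 in 2-B1, 3.96 in 2-C6, 3.91 in 2-E and 4.27 in 2-N. The 3 groups did not overlap, with ES cells lowest and iHAC2-iPS highest. Relative to ES cells, Shmt2 differed by 0.84 in iHAC2-iPS (SE 0.16, 1.79-fold, limma adjusted p 0.0124) and 0.46 in iHAC1-iPS (SE 0.16, limma adjusted p 0.0664), neither called. The adjusted p in iHAC2-iPS was under 0.05 in 10 of 13 alternatives. Exceptions were the fit of only the compared groups (limma adjusted p 0.152) and the fits without B6ES (difference 0.85) or without TT2 (0.83). Slide as a block, among the 10, could not remove a slide difference, as no slide held both groups.

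The iHAC-free lines read 3.59 in F-B1, 3.23 in F-C5, 3.06 in F-E4 and 3.32 in F-N7, and differed from ES cells by 0.12 (95% confidence interval -0.24 to 0.47). iHAC2-iPS was higher than iHAC-free iPS by 0.72 (SE 0.13, 1.65-fold, limma adjusted p 0.0292), which is under 2-fold. The adjusted p was under 0.05 in 10 of 16 alternatives. It was 0.0574 with the line of origin as a replicate block, 0.120 when only the compared groups were fitted, 0.0636 without 2-E, 0.0885 without F-C5, 0.0917 without F-E4 and 0.0930 without F-N7. The difference was 0.65 on 1 of the slides that held both groups and 0.79 on the other. It was -0.38 between iHAC1-iPS and iHAC2-iPS (SE 0.13, limma adjusted p 0.0430). MEFs read 1.90 and 20D17 read 3.18.

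The cytosolic Shmt1 and Mthfd1 and the mitochondrial Mthfd2 were called in none of the 5 comparisons. Shmt1 (chr11:60603099-60603158, mm9) was 1.92 in B6ES, 1.68 in TT2, 1.53 to 1.83 in iHAC1-iPS, 0.79 to 1.64 in iHAC2-iPS and 1.22 to 1.73 in iHAC-free iPS. Mthfd1 (chr12:77418622-77418681, mm9) was 4.44 and 4.15 in the ES lines and lay between 3.78 and 4.65 in all 12 iHAC-derived samples. Mthfd2 (chr6:83256518-83256577, mm9) was 2.03 in B6ES and 0.90 in TT2, 1.39 to 1.93 in iHAC1-iPS, 1.60 to 2.96 in iHAC2-iPS, with 2-N highest, and 1.85 to 2.34 in iHAC-free iPS. The widest 95% confidence intervals of these 3 genes against ES cells were those of Mthfd2. They were -0.56 to 1.08 in iHAC1-iPS and -0.25 to 1.39 in both iHAC2-iPS and iHAC-free iPS.

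**Figure D3:**
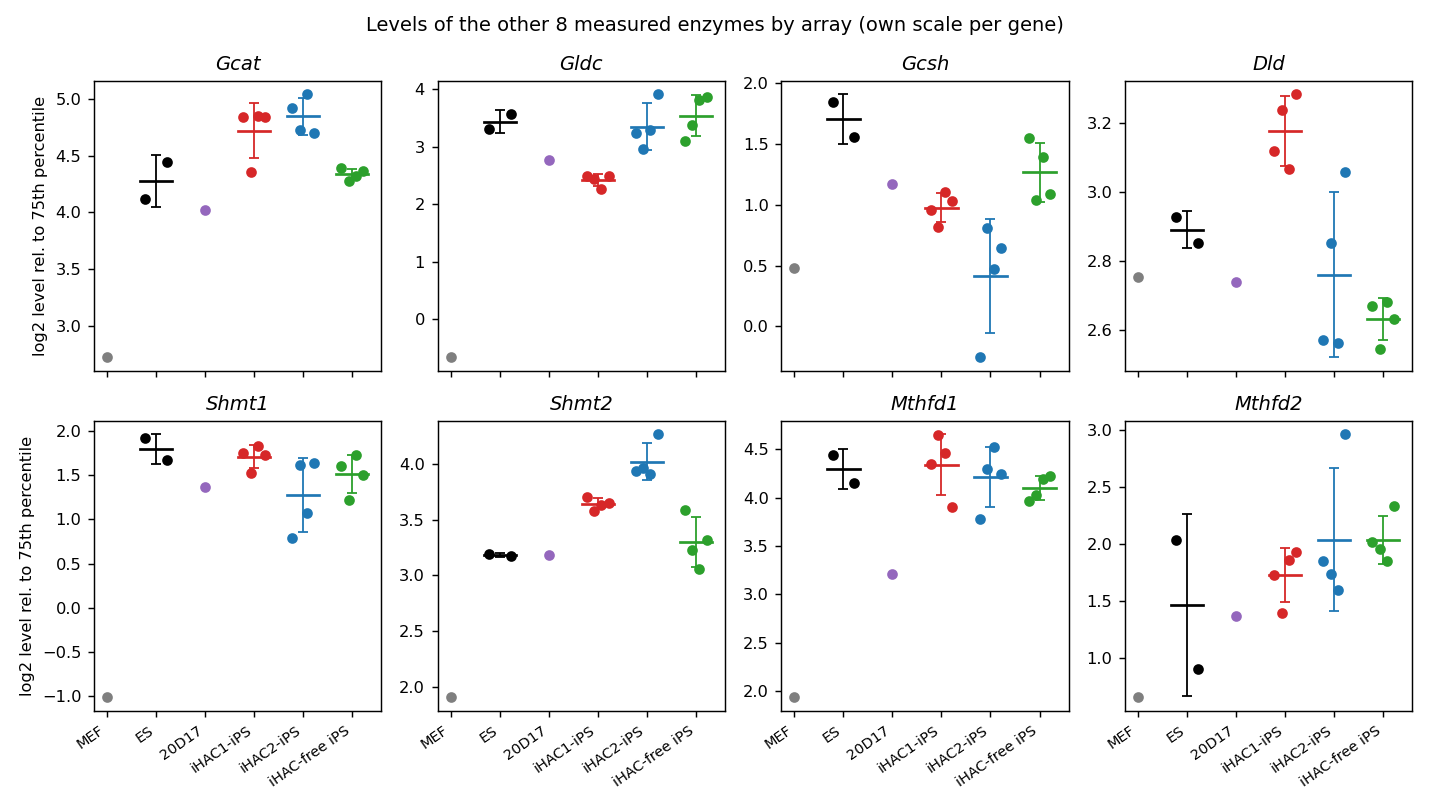
Levels of the 8 enzymes other than Tdh (y axis, log2 relative to the array's 75th percentile, own scale per gene) by group (x axis), 1 point per array, with group mean and 1 SD where there is more than 1 array. Gldc is low in all 4 iHAC1-iPS clones (2.27 to 2.49), Shmt2 is highest in iHAC2-iPS (3.91 to 4.27) and MEFs are lowest for 6 of the 8, the exceptions being Gcsh and Dld.

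Counted over the enzymes in iHAC1-iPS against ES cells, 2 of 9 were called lower, beside 7.85% of the 21220 genes tested, and 0 were called higher, beside 6.83%, with 14.7% called in either direction. Tdh, Gldc and Gcsh lay below both ES lines in all 4 clones, 3 of 9 beside 25% of all genes, and Dld and Shmt2 lay above both in all 4, 2 of 9 beside 22.2%. The median difference of the 9 enzymes was 0.04 on the log2 scale, and 0.03 over all genes.

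In iHAC2-iPS against ES cells 1 of 9 enzymes was called lower, beside 2.87% of all genes, and 0 higher, beside 3.41%, with 6.28% called in either direction. Gcsh and Shmt2 passed the adjusted p at any size, 2 of 9 beside 11.2%. Gcat and Shmt2 lay above both ES lines in all 4 clones (21.4% of all genes) and Gcsh and Shmt1 below both (15.8%). The median difference of the enzymes was -0.09, and 0.07 over all genes. The comparisons with ES cells share the 2 ES arrays.

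In iHAC1-iPS against iHAC2-iPS 1 of 9 enzymes was called lower, Tdh, beside 11.9% of all genes, and 0 higher, beside 8.44%, with 20.3% called in either direction. At any size, 4 of 9 passed the adjusted p, namely Tdh, Gldc, Dld and Shmt2, beside 37.7%. Tdh, Gldc and Shmt2 were lower without overlap between the groups (19.1% of all genes), and Gcsh and Dld were higher without overlap (13.9%). The median difference was -0.13 for the enzymes and -0.08 for all genes.

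In iHAC-free iPS against ES cells limma called 0 of 9 enzymes, beside 0.363% of all genes (0.16% higher and 0.203% lower). Of the 9, 0 had an unadjusted p under 0.05, beside 20.2% of all genes. The differences ran from -0.44 for Gcsh to 0.57 for Mthfd2. Gcsh and Dld lay below both ES lines in all 4 lines (23.6% of all genes), and 0 enzymes lay above both (20.4%). In iHAC2-iPS against iHAC-free iPS limma also called 0 of 9, beside 0.773% of all genes (0.226% higher and 0.547% lower). An unadjusted p under 0.05 was found for 3, namely Gcat, Gcsh and Shmt2, beside 19.2% of all genes. Shmt2 passed the adjusted p at any size, 1 of 9 beside 1.14%.

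**Figure D4:**
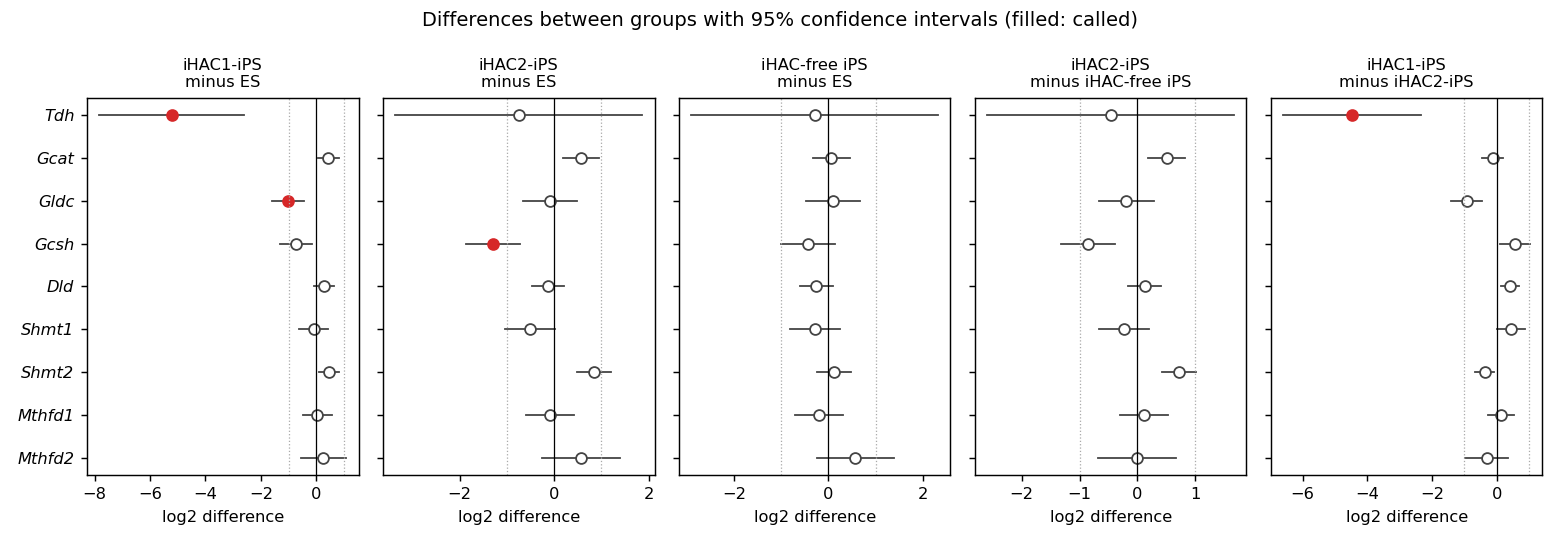
Difference between groups for each enzyme (x axis, log2 difference, own scale per panel) with its 95% confidence interval from limma, 1 panel per comparison, filled points being called and dotted lines marking 2-fold. Called points are Tdh and Gldc in iHAC1-iPS minus ES, Gcsh in iHAC2-iPS minus ES and Tdh in iHAC1-iPS minus iHAC2-iPS.

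Set beside the iHAC-free line sorted from it, each iHAC2-iPS clone had more Gcat and Shmt2 and less Gcsh. The Gcat difference was 0.34 to 0.72 and the Shmt2 difference 0.35 to 0.95, higher in the clone in 4 of 4 lines, and the Gcsh difference was -1.80 to -0.23, lower in the clone in 4 of 4. Over the group, the differences were 0.51 for Gcat (SE 0.15, limma adjusted p 0.115) and -0.85 for Gcsh (SE 0.22, limma adjusted p 0.0802), neither called. The groups as a whole did not overlap for these 3 enzymes, Gcat and Shmt2 being higher in iHAC2-iPS, as in 8.01% of all genes, and Gcsh lower, as in 4.22%. Tdh was lower in the clone in 3 of 4 lines, from -1.33 in line E to 0.54 in line N.

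**Figure D5:**
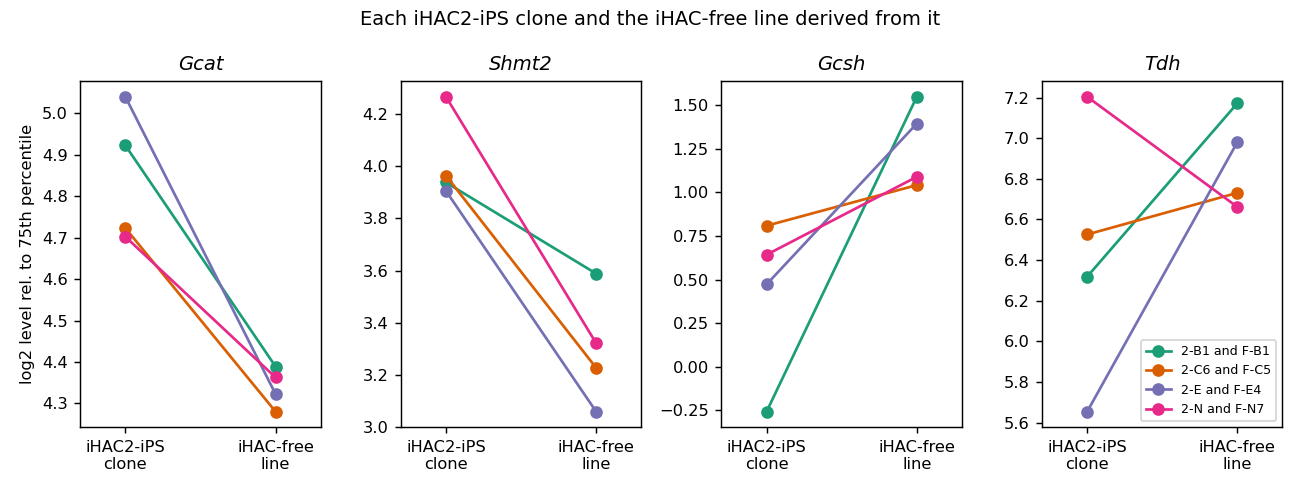
Level (y axis, log2 relative to the array's 75th percentile, own scale per gene) in each iHAC2-iPS clone and in the iHAC-free line sorted from it (x axis), 1 line per pair. Gcat and Shmt2 are higher and Gcsh lower in the clone in 4 of 4 pairs, while Tdh goes both ways.

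MEFs, with 1 array and so no replicate check, stood below the ES mean for 9 of 9 enzymes, except that Dld turned to 0.15 above it with quantile normalization. Most genes also read lower in MEFs, with a median difference of -0.25 over all genes and -1.55 over the enzymes. The distance was at least 2-fold for 7 of 9, beside 23.1% of all genes, and at least 4-fold for Tdh, Gldc, Shmt1 and Mthfd1, beside 7.91%. It was -12.55 for Tdh, -4.10 for Gldc, -2.81 for Shmt1 and -2.36 for Mthfd1. With normexp background correction the Tdh distance was -10.46. The MEF level of Tdh, -5.38, lay near -6.00, the lowest signal well above background on that array. Retroviral 20D17 was at least 2-fold below the ES mean for 1 of 9, Mthfd1 (-1.08), beside 4.05% of all genes. That distance stood near the 2-fold limit and was -0.97 with quantile normalization and -0.94 without B6ES, which left 0 of 9.

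Around the 9 enzymes, 62 genes of 5 further lists were tested: serine synthesis and other breakdown of threonine or serine, other folate enzymes, the methionine cycle and glycine users, lipoate and its complexes, and amino acid transporters. In iHAC1-iPS against ES cells 7 were called higher and 1 lower, 12.9% in all, near the 14.7% over all genes. In the list of serine and threonine breakdown 2 of 8 tested were called higher and 0 lower, namely Tha1, the threonine aldolase that splits threonine without Tdh (mean -2.88 against -5.40, limma adjusted p 0.0165), and Sdsl, a serine dehydratase-like enzyme (log2 difference 1.41, limma adjusted p 0.00157). The ES mean of Tha1 lay near the lowest signals well above background, -5.53 in B6ES and -5.85 in TT2, so the size of its difference is uncertain. Among 18 folate genes, the mitochondrial Aldh1l2, which releases formyl units as carbon dioxide (2.71), and Mthfd2l, a relative of Mthfd2 (2.20), were called higher and the folate receptor Folr1 lower (-3.76). Of 15 methionine cycle genes and glycine users, methionine synthase Mtr (1.70) and sarcosine dehydrogenase Sardh (1.51) were called higher and 0 lower. Of 9 transporters Slc1a4, a carrier of serine, alanine and threonine, was called higher (1.17). Of 12 lipoate genes 0 were called, with 5 at an unadjusted p under 0.05, beside 34.8% of all genes.

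Between iHAC1-iPS and iHAC2-iPS, 8 of the 62 were called higher and 7 lower, 24.2% in all beside 20.3% over all genes. In the breakdown list Sdsl (1.51) and Tha1 were higher in iHAC1-iPS, Tha1 by 3.20 (limma adjusted p 0.000945), and Tha1 was well above background in only 1 of 4 iHAC2-iPS clones. Of the 18 folate genes 4 were higher, among them Aldh1l2 (1.72), the polyglutamate hydrolase Ggh (1.44) and the folate carrier Slc19a1 (1.40), and 2 were lower, the cytosolic formyl-folate enzyme Aldh1l1 (-1.48) and Folr1 (-1.92). Of the 15 methionine cycle genes and glycine users, 2 were higher, among them the S-adenosylmethionine synthetase Mat2a (1.26), and 4 were lower. Cystathionine beta-synthase Cbs (-2.46) and glycine N-methyltransferase Gnmt (-2.67), which methylates glycine, were 2 of them. Dimethylglycine dehydrogenase Dmgdh, not well above background in any iHAC1-iPS clone, was at least 4.33-fold lower there, and the betaine-homocysteine methyltransferase Bhmt, also not well above background in any of them, at least 1.78-fold lower. In iHAC2-iPS, Dmgdh was well above background in 3 of 4 clones and Bhmt in 2 of 4, so these bounds also rest in part on signals near background. Of the 12 lipoate genes Bckdha, a subunit of the branched-chain dehydrogenase, was lower (-1.46). Limma called 0 of 9 transporters, with 3 at an unadjusted p under 0.05, beside 48.1% of all genes. In iHAC2-iPS against ES cells 2 of 62 were called, both higher, 3.23% beside 6.28% over all genes. They were Cbs (1.78) and Bhmt. Bhmt was not well above background in either ES line and was so in only 2 of 4 iHAC2-iPS clones. Its bound of at least 2.00-fold higher in iHAC2-iPS thus rests in part on signals near background. Limma called 0 of 62 in iHAC-free iPS against ES cells, beside 0.363% over all genes, and 10 had an unadjusted p under 0.05, beside 20.2%. It called 0 of 62 in iHAC2-iPS against iHAC-free iPS, beside 0.773%, and 15 had an unadjusted p under 0.05, beside 19.2%.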

How the data were processed

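Total RNA (500 ng per sample, Cy3) of 16 samples was measured on 1-colour Agilent whole mouse genome arrays, annotated on mm9. The authors deposited each array's Feature Extraction output (version 10.7.1.1 for the MEF, ES, 20D17 and iHAC1-iPS arrays, 10.7.3.1 for the iHAC2-iPS and iHAC-free arrays), whose processed signal is a background-subtracted intensity, and a table of log2 values from GeneSpring GX11 that is centred per probe. Its column medians ran from -0.33 to 0.28, and its columns followed the scanner values with r of at least 0.99969 and slopes of 0.999 to 1.00. Control spots and outlier spots (46 to 94 per array) were left out, spots of a probe were averaged, log2 was taken and each array's 75th percentile subtracted. No array had a saturated probe, and 54.2% to 65.8% of probes were well above background. The share was lowest in iHAC2-iPS, at 54.2% in 2-B1 and 56.7% to 59.8% in the other clones. It was 61.8% and 63.8% in the ES lines, 61.6% to 62.0% in iHAC1-iPS and 59.4% to 63.0% in iHAC-free iPS. The part of this difference in the iHAC2-iPS results was not tested. The number of arrays limits the precision.

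limma 3.58.1 (R 4.3.3) was fitted once to 16 arrays in 6 groups, over 31423 probes well above background on at least 1 array, with Benjamini-Hochberg adjustment over all of them. Calls needed an adjusted p under 0.05 and 2-fold. A gene was read by its probe with the highest mean. Bounds written as "at least" use, on each array of the lower group, the higher of the probe's own signal and the lowest signal among probes well above background. The higher group enters with its plain mean. The fit was tested on simulated data. RefSeq tables (GRCm38.p6) gave names and promoters only. Nothing states separate cultures per sample beyond the clones, so p-values measure the spread between these samples. The 4 iHAC-free lines were paired with iHAC2-iPS clones by the parental clone given in the study. Deviations of paired samples correlated at -0.22 to 0.08, and those of other pairs at -0.10 to 0.22.

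The enzymes, lists and tests were chosen with earlier results of these data known. All enzymes were named, list genes were named when called, up to 5 per list and comparison, and the 5 genes most like Tdh by Pearson's r. Alternatives were normexp (offset 50), quantile normalization, the deposited table, no filter or a strict filter on dim probes, only the compared groups, slide as a block, a replicate block, any probe, and leaving out each array. The probe nearest the 3-prime end was added after seeing the data.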

Additional observations from a re-analysis of the deposited data

Results flagged for a closer look

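Of 39 sets of values screened, each 1 enzyme probe in 1 group of 4, 3 had a sample far from the other 3, and chance alone flags about 1 in 20, or 1.95 of 39. Gcat in iHAC1-iPS was 4.36 in 1-B, with the nearest clone at 4.84. The Dld probe starting at base 165 read -3.91 in the iHAC2-iPS clone 2-B1, with the nearest clone at -2.67. Shmt2 in iHAC2-iPS was 4.27 in 2-N, with the nearest clone at 3.96.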

How the results depend on the processing

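In iHAC1-iPS against ES cells, 2 enzymes were called. The count was 1 with normexp, quantile normalization, the deposited values or only the compared groups, 0 with slide as a block, and 0 to 2 when 1 array was left out, with 0 without either ES line and 1 without 1-C3. In iHAC2-iPS against ES cells the count was 1, but 0 with only the compared groups, 2 when a call by any probe counted, and 0 to 1 when 1 array was left out, with 0 without either ES line. In iHAC1-iPS against iHAC2-iPS it was 1, but 2 by any probe and 1 to 2 when 1 array was left out, with 2 without 2-C6. In iHAC-free iPS against ES cells and in iHAC2-iPS against iHAC-free iPS it was 0 under each alternative run, and the replicate block of the line of origin also gave 0 and changed no call. Leaving out 1 ES line leaves a lone ES sample, assumed to vary like the other groups. Where samples are removed the fit has fewer degrees of freedom, and the cause of the other changes was not tested. No called enzyme changed direction. Of 630 alternative values of single enzymes, 19 changed sign, in 10 uncalled differences of at most 0.26 on the log2 scale. The probe nearest the 3-prime end, an alternative chosen after seeing the data, left each count as it was. The median difference of all probes moved by over 0.1 with 2 scalings, with normexp from 0.02 to -0.16 in iHAC-free iPS against ES cells and from 0.05 to 0.16 in iHAC2-iPS against iHAC-free iPS, and with quantile normalization from -0.05 to 0.07 in iHAC1-iPS against iHAC2-iPS.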
